A study of Homo sapiens with 9 samples.

Results

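Bidirectional promoters are stretches from which a protein-coding gene on the minus strand and another on the plus strand start close to each other. Peaks of POLR2A, which forms the catalytic core of RNA polymerase II as its largest subunit, at such promoters are described here. A peak belonged to the set when its summit, the position of its highest signal, was at most 1000 bp from a transcript start of at least 1 coding gene on each strand. The annotation was GENCODE version 44 on GRCh38, and chromosomes 1 to 22 and X were used. The set held 1066 of the 8930 deposited peaks: 344 of 2757 control peaks, 171 of 1730 under U2AF1 knockdown and 551 of 4443 under DHX9 knockdown.

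The cells were HEK293T, a human embryonic kidney line. The control cells expressed a control shRNA and are labelled wildtype, and the other 2 conditions were knockdown of U2AF1, which helps the spliceosome recognise 3′ splice sites, and of DHX9, an RNA and DNA helicase. Each condition had 2 POLR2A ChIP replicates and 1 input sample, but 1 peak list, so no value has a replicate error and no test between conditions was possible. The lists are called the control, U2AF1 and DHX9 lists below. Peak names in the control list end in a number, 1, and those in the other lists do not. What the number stands for is not stated, and the descriptions of both control ChIP replicates name this list. The control list may thus rest on 1 library or on both. Differences between lists therefore compare these lists, not the conditions. The lists do not measure how far U2AF1 or DHX9 was lowered, and the depth of the libraries is unknown from them. By its title, the series concerns R-loops at promoters and U2AF1. An R-loop is a hybrid of nascent RNA with the template DNA that leaves the other DNA strand single.

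In a bidirectional promoter both genes share a short, usually CpG-rich stretch that is kept free of nucleosomes, and a separate polymerase complex is assembled for each direction. Many housekeeping genes, among them DNA repair, mitochondrial and histone genes, are arranged this way. POLR2A pauses shortly after each start, so a ChIP peak at such a promoter can sum polymerase from both directions, and ChIP does not tell the strand.

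The stretches between the starts of 5 pairs are printed as examples, which were chosen by strength and do not stand for these promoters in general. The pairs are those with a peak in all 3 lists and the highest mean percentile of strength within the lists. Not every chromosome was open to this choice, which was made among stretches of 60 to 300 bp without an annotated exon. Each is printed on the plus strand of GRCh38, from the base after the minus-strand gene's innermost annotated start to the base before that of the plus-strand gene. Capitals mark matches to any of 9 short motifs on either strand, which are spelled out further below. The stretches lie at chr17:7484264-7484365, chr17:15999718-15999783, chr9:127451407-127451488, chr6:27146856-27147105 and chr6:27132796-27133042, in this order.
ZBTB4/POLR2A: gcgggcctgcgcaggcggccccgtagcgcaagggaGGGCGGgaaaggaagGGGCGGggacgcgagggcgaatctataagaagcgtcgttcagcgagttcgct
ZSWIM7/TTC19: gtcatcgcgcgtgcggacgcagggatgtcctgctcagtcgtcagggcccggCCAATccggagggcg
RPL12/LRSAM1: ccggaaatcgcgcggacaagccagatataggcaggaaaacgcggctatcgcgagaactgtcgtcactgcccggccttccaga
H2BC12/H2AC12: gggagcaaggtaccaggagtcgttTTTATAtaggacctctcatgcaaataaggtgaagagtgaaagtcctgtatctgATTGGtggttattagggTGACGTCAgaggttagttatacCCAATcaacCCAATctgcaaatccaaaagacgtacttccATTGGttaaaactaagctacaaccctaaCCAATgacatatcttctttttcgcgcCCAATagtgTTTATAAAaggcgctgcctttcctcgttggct
H2BC11/H2AC11: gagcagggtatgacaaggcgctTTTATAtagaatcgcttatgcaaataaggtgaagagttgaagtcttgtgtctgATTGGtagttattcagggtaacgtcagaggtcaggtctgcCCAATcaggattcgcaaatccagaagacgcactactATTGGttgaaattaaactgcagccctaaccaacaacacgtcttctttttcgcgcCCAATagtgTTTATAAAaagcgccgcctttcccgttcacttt

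The stretch of 102 bp between ZBTB4, a zinc finger repressor, and POLR2A holds 2 SP boxes (GGGCGG), the element bound by SP1 and its relatives. The 66 bp between ZSWIM7, a protein of homologous recombination, and TTC19, an assembly factor of respiratory complex III, hold 1 CCAAT box, the element bound by NF-Y. The 82 bp between RPL12, a protein of the large ribosomal subunit, and LRSAM1, a ubiquitin ligase, hold no match. The stretches of 250 and 247 bp at the histone pairs H2BC12/H2AC12 and H2BC11/H2AC11 hold 6 and 4 CCAAT boxes and 3 TATA matches (TATAAA) each, and the first also holds 1 CRE (TGACGTCA). Their G+C content was 42.4% and 43.7%, against 68.6%, 71.2% and 59.8% at the other pairs in the order printed. The histone stretches were thus the least G+C-rich of the 5. They were also the longest, so the numbers of matches are not per length. Adjacent TATA matches at their right end overlap on opposite strands. The G+C content of the histone stretches lay below the median of annotated pairs. Windows of 201 bp midway between the starts of 912 annotated pairs, with or without a peak, had a median G+C of 64.2%. A TATA match was in 2.96% of those windows. The histone TATA matches lie near the ends of their stretches, which midway windows miss where the starts lie far apart. The TATA share is therefore not a like-for-like comparison. A match describes the sequence only, and histone genes have near-identical copies, so the placement of reads at them is uncertain.

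Bidirectional promoters were next counted whether or not they held a peak. Windows of 1000 bp around all coding starts merged into 2007 bidirectional promoters. Of these 337 (16.8%, 95% Wilson interval 15.2 to 18.5%) held a summit of the control list, 166 (8.27%, 7.14 to 9.56%) one of the U2AF1 list and 530 (26.4%, 24.5 to 28.4%) one of the DHX9 list. The intervals here and below cover counting error only. A peak of any list was found at 643 of the 2007, or 32%. The lists differ in length. Cut to the 1730 most significant peaks each, the control list kept 198 members and the DHX9 list 208, beside the 171 of the U2AF1 list: the gaps were smaller and the order was the same.

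A comparison with promoters that start genes on 1 strand used canonical transcripts alone, since internal starts of long genes otherwise add many windows. Of 1075 bidirectional promoters on this basis, 19.9% (17.6 to 22.4%) held a control summit, against 10.5% (10 to 10.9%) of 17279 promoters with starts on 1 strand. The shares were 9.58% (7.96 to 11.5%) against 5.6% (5.26 to 5.95%) in the U2AF1 list and 32.6% (29.8 to 35.4%) against 17.5% (17 to 18.1%) in the DHX9 list. A bidirectional window was somewhat shorter on average. The totals were 1700 kb for the 1075 bidirectional promoters and 34688 kb for the 17279 with starts on 1 strand. Per Mb of window there were 129 against 52.6 summits in the control list, 62.9 against 28 in the U2AF1 list and 216 against 88.9 in the DHX9 list. In every list the intervals of the paired shares do not overlap. A bidirectional promoter counts once here, though it starts genes on both strands.

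Bidirectional promoters whose starts lay at most 200 bp apart held a peak at a higher share than those over 400 bp apart in each list, though some intervals overlap. Of 912 divergent pairs of canonical starts within 1000 bp (the minus-strand start to the left of the plus-strand start), 388 (42.5%) had a peak in any list, 59 (6.47%) in all 3 lists, and 524 in none. The control list had a peak at 30.6% (24.2 to 37.9%) of the 173 pairs 1 to 100 bp apart and at 29.2% (23.5 to 35.6%) of the 216 pairs 101 to 200 bp apart. At the 298 pairs 201 to 400 bp apart it was 17.1% (13.3 to 21.8%), and at the 225 pairs over 400 bp apart 14.2% (10.3 to 19.4%). The same groups held 11, 16.2, 8.72 and 5.78% in the U2AF1 list and 42.2, 42.6, 32.6 and 29.3% in the DHX9 list. The intervals of the nearest and farthest groups do not overlap in the control list and do in the other lists (7.14 to 16.5% and 3.41 to 9.63% in the U2AF1 list, 35.1 to 49.6% and 23.8 to 35.6% in the DHX9 list). Those of the groups 101 to 200 bp and over 400 bp apart do not overlap in any list. For the former group they were 11.9 to 21.7% in the U2AF1 list and 36.2 to 49.3% in the DHX9 list. The window within 1000 bp of both starts shrinks as the starts move apart. With summits counted from 300 bp past one start to 300 bp past the other, the control shares were 29.5, 28.2, 16.4 and 16.4%. The U2AF1 shares were then 10.4, 15.7, 8.72 and 6.22%, and the DHX9 shares 40.5, 40.7, 31.9 and 29.3%. On this basis the DHX9 intervals at 101 to 200 bp and over 400 bp overlap (34.4 to 47.4% and 23.8 to 35.6%). The median distance between the starts was 260 bp for pairs without a peak, 200 bp for pairs with one in any list and 141 bp for pairs with one in all 3.

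**Figure D1:**
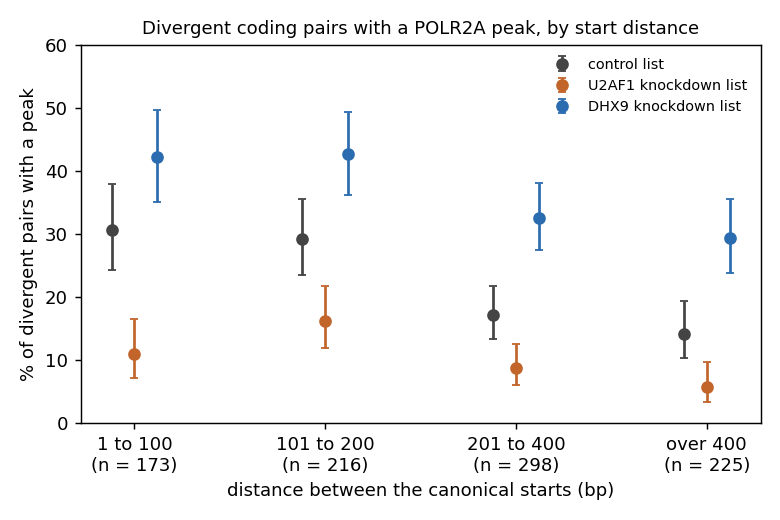
Percent of 912 divergent coding pairs with a POLR2A peak (vertical axis) by the distance between their canonical starts in bp (horizontal axis), for each list, with 95% Wilson intervals as bars. In the control list the share was 30.6% at 1 to 100 bp and 14.2% over 400 bp.

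The strength of a peak is given as fold enrichment, the authors' own ratio of ChIP signal to background, which ranks peaks within a list. The background it is relative to is not given in the sources used here. The median fold of the members was 4.04 in the control list (range 2.3 to 19.5), 5.01 in the U2AF1 list (2.94 to 12) and 5.28 in the DHX9 list (2.77 to 19.6). Peaks at coding promoters with starts on 1 strand had medians of 4.32, 5.08 and 5.45. The members lay at the median percentile 47.2, 57.6 and 50.5 of their lists, and the 1-strand peaks at 56.1, 58.8 and 54.2. Few members were among the strongest peaks: 21 (6.1%), 7 (4.09%) and 40 (7.26%) were above percentile 90 of their list, against 9.11, 9.67 and 9.96% of the 1-strand peaks. Peak width was alike, with medians of 323, 281 and 328 bp against 321, 282 and 324 bp.

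**Figure D2:**
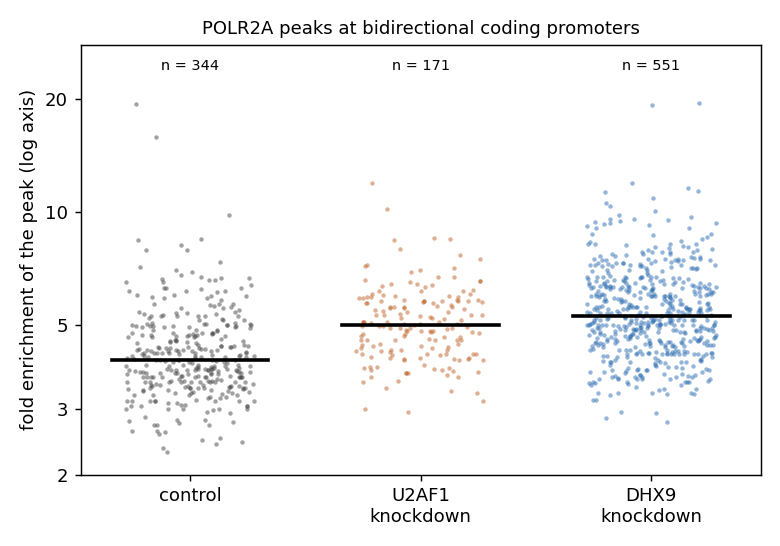
Fold enrichment (log axis) of each peak at a bidirectional coding promoter, 1 point per peak, by list. Most points lie between 3 and 7, and ZBTB4/POLR2A is highest in the control list, at 19.5, and in the DHX9 list, at 19.6.

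The strongest member of the control and DHX9 lists was the promoter of POLR2A itself, shared with ZBTB4. Its fold was 19.5 (rank 29 of the list) in the control list, 8.43 (rank 128) in the U2AF1 list and 19.6 (rank 58) in the DHX9 list. The summits lay on the POLR2A side in all 3 lists, 103, 43 and 45 bp after its start, and each peak covered both starts. RPL12/LRSAM1 had a fold of 15.9 (rank 50), 6.01 (rank 371) and 11.6 (rank 136), in the same order of lists. Its 3 summits lay at the RPL12 start, from 2 bp before it (control list) to 8 bp after it (DHX9 list). CDC25C, a phosphatase that drives entry into mitosis, and FAM53C have starts that overlap. Their promoter was the strongest member of the U2AF1 list, with a fold of 12 (rank 48), and had 9.83 (rank 106) in the control list and 9.85 (rank 216) in the DHX9 list.

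Both SR protein genes among the leading pairs had a peak in all 3 lists. SRSF2, an activator of exon inclusion, starts opposite MFSD11, and the fold there was 7.92 (rank 168), 10.2 (rank 74) and 9.09 (rank 274) in the control, U2AF1 and DHX9 lists. SRSF7, another SR protein, starts opposite GEMIN6, a member of the SMN complex that assembles spliceosomal snRNPs, and had 6.68 (rank 250), 8.52 (rank 122) and 9.36 (rank 248). The summits of these peaks lay nearest to the SR gene in every list, and the DHX9 list had a further peak of 4.31 at the MFSD11 start.

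Several named pairs, histone pairs among them, stood at different ranks in the lists. H2BC12/H2AC12 had a fold of 6.53 (rank 268) in the control list, 5.78 (rank 454) in the U2AF1 list and 19.3 (rank 59) in the DHX9 list. H2BC11/H2AC11 had 4.96 (rank 771), 7.51 (rank 174) and 12 (rank 118). RPS28, a protein of the small ribosomal subunit, had 5.3 (rank 605), 5.22 (rank 652) and 11.4 (rank 141). TBCCD1/DNAJB11, the second an endoplasmic reticulum chaperone, had 2.92 (rank 2377) in the control list, 8.51 (rank 123) in the U2AF1 list and no peak in the DHX9 list. ZSWIM7/TTC19 had 8.21 (rank 156), 7.04 (rank 213) and 9.74 (rank 220). The lists differ in length and possibly in the number of libraries behind them, so a rank in one cannot be read as a change from another.

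Members of the control and DHX9 lists recurred in the other lists at shares whose intervals hold those of all peaks, and members of the U2AF1 list recurred at higher shares than all peaks of that list. A peak counted as shared when it overlapped a peak of the other list by at least 1 bp. Of the 344 control members 112 (32.6%, 27.8 to 37.7%) were in the U2AF1 list, beside 34.3% of all control peaks. In the DHX9 list there were 245 (71.2%, 66.2 to 75.8%), beside 67.1%, and in neither list 85 (24.7%, 20.4 to 29.5%), beside 28.7%. These intervals hold the background shares. Of the same 344, 98 were in both knockdown lists, 147 in the DHX9 list alone and 14 in the U2AF1 list alone. This split follows from the counts above, whose intervals hold the background shares, and adds no separate result.

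Of the 171 members in the U2AF1 list, 116 (67.8%, 60.5 to 74.4%) were in the control list, beside 56.5% of all its peaks. In the DHX9 list there were 135 (78.9%, 72.2 to 84.4%), beside 69.1%, and 19 (11.1%, 7.23 to 16.7%) were in neither list, beside 23.5%. These are above or below the background, but peaks at 1-strand coding promoters gave 64.3, 78.3 and 15.4%, within the members' intervals. Of the 551 members in the DHX9 list, 246 (44.6%, 40.5 to 48.8%) were in the control list, beside 41.5% of all its peaks. In the U2AF1 list there were 132 (24%, 20.6 to 27.7%), beside 25.9%, and 271 (49.2%, 45 to 53.3%) were in neither, beside 51.1%. The shares at 1-strand promoters were 34.5, 74.5 and 22.4% for the control list and 42.8, 24.1 and 50.9% for the DHX9 list, also within the members' intervals.

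The share that recurred moved with strength. In 4 equal parts of its own list by fold enrichment, weakest first, 23.8, 29.8, 24.2 and 58.5% of control members were in the U2AF1 list, and 58.7, 65.3, 76.8 and 86.2% in the DHX9 list. Of DHX9 members, 26.7, 35.7, 48.3 and 67.2% were in the control list. Peaks at 1-strand coding promoters moved likewise. Of those in the control list, 23.6, 18.9, 32.7 and 58.2% were in the U2AF1 list, and 68.7, 68.2, 72.8 and 85.9% in the DHX9 list. Of those in the DHX9 list, 23.4, 29.8, 42.2 and 70.2% were in the control list. The rise was thus not particular to bidirectional promoters. With 1730 peaks in each list, the share of control members found in the DHX9 list was 50% in place of 71.2%.

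By promoter, the 643 with a peak fell into 7 patterns. The largest was a peak in the DHX9 list alone, at 254 promoters (39.5%), followed by the control and DHX9 lists together at 141 (21.9%) and all 3 lists at 101 (15.7%). The control list alone had 82 (12.8%), the U2AF1 and DHX9 lists together 34 (5.29%), the U2AF1 list alone 18 (2.8%), and the control and U2AF1 lists together 13 (2.02%). The 3550 coding promoters with starts on 1 strand and a peak gave 41.7, 21.4, 15.7, 10.3, 5.55, 3.66 and 1.63% for the same patterns. The promoters in all 3 lists were also the stronger ones, with a median percentile of 60.9 in the control list, against 40.2 at those in the control list alone.

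**Figure D3:**
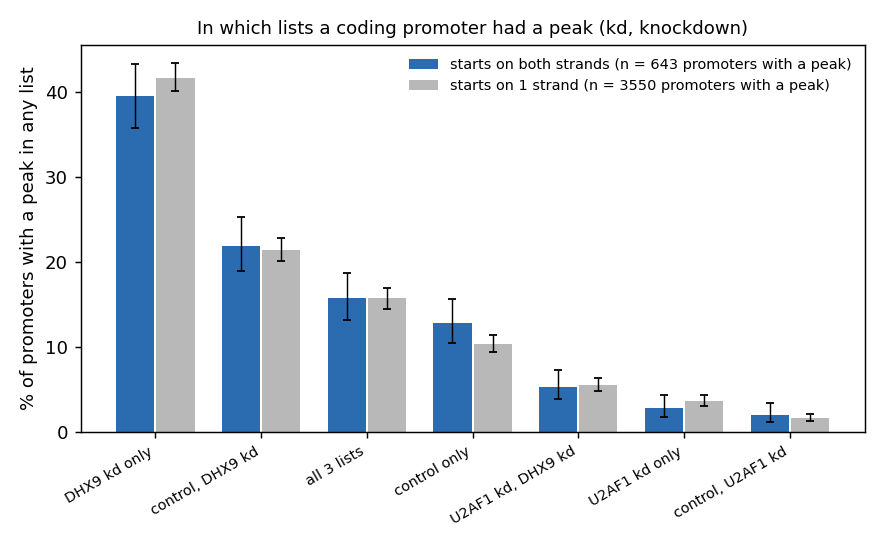
Percent of coding promoters with a peak (vertical axis) by the lists that hold one, for bidirectional promoters (643) and promoters with starts on 1 strand (3550). Both kinds give similar shares in each pattern, for example 39.5% and 41.7% in the DHX9 list alone.

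Some strong members were in 1 list or 2 lists only. Of control members that the U2AF1 list did not overlap, the highest was ABCD4/VRTN, with a fold of 8.51 (rank 147) and 3.43 (rank 4140) in the DHX9 list. ABCD4 is a lysosomal transporter of vitamin B12. C11orf98/CSKMT had 8.44 (rank 152) and 5.16 (rank 2404). SEC31A, a coat protein of COPII vesicles, shared with THAP9 a control fold of 6.95 and no peak in either knockdown list. RP9/BBS9 had 5.99 and TEFM/ADAP2 5.95 in the control list alone, and TEFM is the elongation factor of mitochondrial transcription. PPP1R3D/FAM217B had 6.27 in the control list and 4.84 in the U2AF1 list.

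In the U2AF1 list, EXD3/NOXA1 had a fold of 7.99 (rank 144) and no peak elsewhere. The other 4 leading pairs not overlapped in the control list, SLC8B1/PLBD2 (6.55), LSM7/SPPL2B (6.34), APPL2/C12orf75 (6.17) and APIP/PDHX (5.94), also had a peak in the DHX9 list, at 7.82, 6.72, 5.87 and 6.63. LSM7 belongs to the ring of proteins on U6 snRNA, and PDHX to the pyruvate dehydrogenase complex. In the DHX9 list LACTB2/XKR9 had 9.58 (rank 229) and SCARB2/FAM47E 8.21 (rank 405), and neither had a peak elsewhere. SEPTIN10/SOWAHC had 9.34 there and 5.73 in the U2AF1 list. SNX8/EIF3B had a peak of 8.26 that no control peak overlapped, though another control peak, of 3.92, lay in the same promoter.

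Summits lay outside the stretch between the starts more often than in it. Divergent starts made up 293 (85.2%) of the control members, 136 (79.5%) of the U2AF1 members and 467 (84.8%) of the DHX9 members. At the others the starts overlapped. The starts used are those nearest to the summit on each strand, so the same promoter can change class between lists. PSME4/ACYP2, for example, was divergent in the control list and overlapping in both knockdown lists. The median distance between divergent starts was 153, 162 and 158 bp. The summit lay between them at 63 (21.5%, 17.2 to 26.6%), 28 (20.6%, 14.6 to 28.1%) and 110 (23.6%, 19.9 to 27.6%) of these peaks. In the control list 122 summits lay past the minus-strand start and 108 past the plus-strand start, and in the DHX9 list 191 and 166. With canonical starts alone the shares between the starts were lower, 12.1, 10.3 and 14.8%. Bidirectional promoter windows had a median width of 1910 bp, so the parts between and outside the starts are far from equal in length. In the groups of start distance used above, nearest first, 21.1, 14, 27.1 and 36.4% of control summits lay between the starts.

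**Figure D4:**
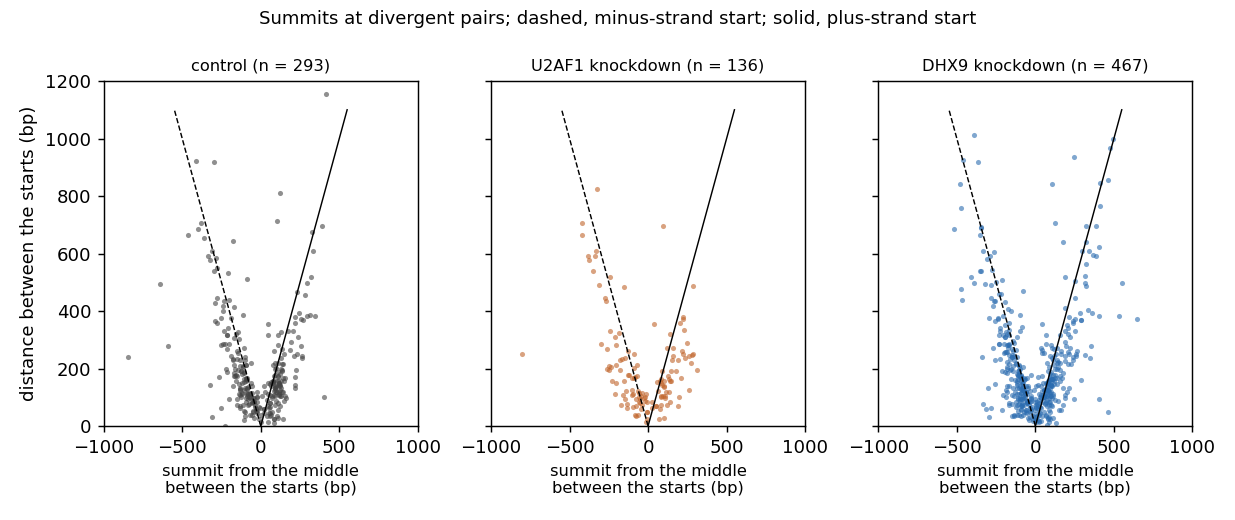
Each point is a peak at a divergent pair: the summit's distance in bp from the middle between the starts (horizontal axis) against the distance between the starts in bp (vertical axis), in 1 panel per list. Lines mark the starts, and of 293, 136 and 467 summits 63, 28 and 110 lie between them.

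The summit lay a median of 30, 43 and 26 bp after the nearer start in the control, U2AF1 and DHX9 lists. Peaks at 1-strand promoters had 23, 34 and 18 bp. The nearer of 2 starts is closer by construction, so these medians are not a like-for-like comparison. A single peak often spanned both starts: at 51.9, 40.4 and 51.4% of divergent members. In the control list the share was 85.5% where the starts lay 1 to 100 bp apart and 3.03% where they lay over 400 bp apart.

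Where peaks of different lists overlapped, most summits lay nearest to the same gene's strand. Only peaks that overlap one to one were compared, which by itself keeps their summits close. Of 110 one-to-one overlapping pairs between the control and U2AF1 lists, 85 (77.3%, 68.6 to 84.1%) had both summits nearest to the start on the same strand. The counts were 189 of 240 (78.8%, 73.1 to 83.5%) between the control and DHX9 lists and 105 of 130 (80.8%, 73.2 to 86.6%) between the knockdown lists. The summits of a pair lay a median of 46, 51 and 54.5 bp apart, against 32, 36 and 42.5 bp at 1-strand promoters. Spearman's correlation of fold enrichment across these pairs of peaks was 0.203, 0.297 and 0.285, and across 1-strand pairs 0.49, 0.4 and 0.412. These correlations are across peaks of single lists, which are not replicates.

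Separate peaks at both starts were rare. More than 1 peak was found at 7 of 337 promoters in the control list, 5 of 166 in the U2AF1 list and 21 of 530 in the DHX9 list. At 4, 5 and 18 of them the peaks lay at opposite strands' starts. ANKRD16/FBH1 on chromosome 10 had both peaks in all 3 lists, and FBH1 is a DNA helicase. The fold at the ANKRD16 side was 5.39, 3.86 and 7.51, and at the FBH1 side 4.24, 5.75 and 8.47, in the control, U2AF1 and DHX9 lists. The higher side was thus ANKRD16 in the control list and FBH1 in both knockdown lists. This is 1 promoter with no replicate error, so it cannot be read as a change between conditions. Control summits stood 542 bp apart, at 5889805 and 5890347. ST7L/CAPZA1 had 4.78 and 3.06 in the control list and 4.91 and 3.36 in the DHX9 list, with ST7L the higher in both. The histone pair H2BC4/H2AC6 had 3.55 and 3.46 in the control list and 3.52 and 4.69 in the DHX9 list.

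Gene groups were compared by how many of their genes with a bidirectional promoter had a peak there. Over all 3800 such coding genes the shares were 18.4% in the control list, 9% in the U2AF1 list and 28.9% in the DHX9 list. Both genes of a pair share a peak, so genes are not independent, and no group was tested. Of 32 replication-dependent histone genes, which package newly copied DNA, 18 (56.2%) had a peak in the control list, 11 (34.4%) in the U2AF1 list and 18 (56.2%) in the DHX9 list. The histone promoters with a peak in any list numbered 9, which start 20 of the 32 genes, and 5 of the 9 had a peak in all 3 lists. H2BC21/H2AC20 had a fold of 4.6, 2.94 and 5.58, and H2BC13/H2AC13 3.71, 4.08 and 5.

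Cytosolic ribosomal proteins had peaks at 34.6, 23.1 and 50% of 26 genes, in the control, U2AF1 and DHX9 lists. NKIRAS1/RPL15 had a fold of 6.6, 5.04 and 5.29, and RPL6/PTPN11 4.16, 4.18 and 7.76. Mitochondrial ribosomal proteins had peaks at 23.5, 5.88 and 47.1% of 34 genes. SKA3/MRPL57 had one in all 3 lists (3.49, 6.22 and 3.9), HIRA/MRPL40 in the control and DHX9 lists (3.22 and 6.32), and MRPS34/EME2 in the DHX9 list alone (6.35). Subunits of the respiratory chain and ATP synthase had peaks at 27.8, 8.33 and 33.3% of 36 genes. Examples are UQCRH of complex III, opposite LRRC41, with 5.28, 4.77 and 6.45, and SDHA of complex II, opposite CCDC127, with 3.73 in the control list and 8.22 in the DHX9 list.

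Splicing genes had peaks at 22.2, 11.1 and 42.2% of 45 genes, in the same order of lists. Besides SRSF2 and SRSF7, SRSF9/DYNLL1 had a fold of 3.75, 4.8 and 6.56. DNA replication and repair genes had peaks at 29.4, 7.35 and 35.3% of 68 genes. LIPT2/POLD3, the second a subunit of DNA polymerase delta, had 6.28, 7.2 and 8.41. XRCC3, a homologous recombination protein opposite ZFYVE21, had 6.51, 5.24 and 7.1, and POLH, the translesion polymerase eta opposite XPO5, 4.37, 4.82 and 5.03.

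RNA polymerase subunits had peaks at 46.7, 13.3 and 40% of 15 genes, and after ZBTB4/POLR2A came POLR2L/TSPAN4, with a fold of 5.43, 5.58 and 10.1. POLR3K/SNRNP25 (4.18 and 4.91) and POLR2I/TBCB (3.49 and 5.7) had peaks in the control and DHX9 lists. Mediator and general transcription factors had peaks at 23.1, 11.5 and 42.3% of 26 genes, led by TAF5L/URB2 with 5.64, 3.73 and 9.54. Proteasome subunits had peaks at 20, 10 and 40% of 10 genes, among them PSMA7/SS18L1 with 5.5 in the control list and 6.01 in the DHX9 list. Aminoacyl-tRNA synthetases had peaks at 23.1, 7.69 and 30.8% of 13 genes, and KARS1, which charges lysine tRNA and starts opposite TERF2IP, had 3.53, 3.73 and 7.33. C2H2 zinc finger genes named ZNF had peaks at 13.3, 8 and 33.3% of 75 genes, led by ZNF598/NPW with 7.36, 5.11 and 11.3. Mitochondrial import and chaperone genes had a peak at 7.69, 15.4 and 0% of 13 genes, and 0 of 13 is a small count.

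**Figure D5:**
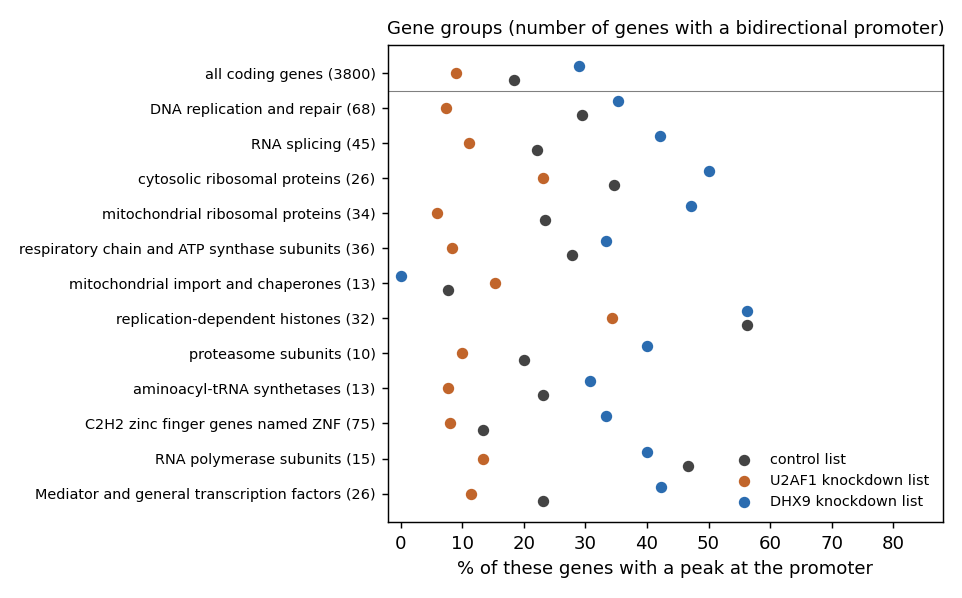
Percent of the genes of each group that had a peak at their bidirectional promoter (horizontal axis), for the 3 lists, with the number of such genes in brackets. Histone genes stand at 56.2%, 34.4% and 56.2% in the control, U2AF1 and DHX9 lists, beside 18.4%, 9% and 28.9% of all coding genes in the top line.

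Of 21 pairs listed as textbook examples, 17 shared a bidirectional promoter by the rule. The other 4 are not such pairs in the annotation. RPL13A/FLT3LG, VARS2/GTF2H4 and UBE2V2/MCM4 each start on the same strand, and the canonical starts of ACAT2/TCP1 lie 27557 bp apart. A peak in any list was found at 7 of the 17, beside 643 of all 2007 bidirectional promoters (32%) and 388 of the 912 divergent pairs (42.5%). SURF1, an assembly factor of cytochrome oxidase, and SURF2 had a fold of 4.97, 7.25 and 7.07 in the control, U2AF1 and DHX9 lists. PRKDC/MCM4, a DNA repair kinase and a subunit of the replicative helicase, had 4.15 in the control list and 4.2 in the DHX9 list. HSPD1/HSPE1, the mitochondrial chaperonins, had a peak in the U2AF1 list alone (4.66). BRCA2/ZAR1L (7.57) and TRMT2A/RANBP1 (4.58) were found in the DHX9 list alone. The remaining 10 of the 17 pairs, among them ATM/NPAT and COL4A1/COL4A2, had no peak in any list.

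The sequence around the summits was searched for 9 motifs in windows of 201 bp, on both strands. They were ETS (CCGGAAGT), NRF1 (GCATGCGC), NFY (CCAAT), SP (GGGCGG), YY1 (ATGGCGGC), ZNF143 (ACTACAATT), CRE (TGACGTCA), E-box (CACGTG) and the TATA box spelled above. None of these strings contains another. These shares rise with the length of the window. The ETS motif was in 5.81% (3.79 to 8.81%) of the control members' windows, against 3.44% (2.69 to 4.39%) of those at 1-strand coding promoters. The shares were 4.09 against 2.91% in the U2AF1 list and 5.99 against 4.26% in the DHX9 list. YY1 was in 9.88, 12.9 and 10.3% of members' windows, against 7.83, 8.21 and 7.4%. NFY was in 11, 8.19 and 12.3%, against 8.94, 7.28 and 9.2%. TATA was in 2.62, 2.34 and 1.81%, against 4.5, 4.57 and 2.47%. In these windows of 201 bp, for ETS, YY1, NFY and TATA, the members' and the 1-strand intervals overlap in each list. With 50 and 200 bp on each side of the summit in place of 100, ETS was in 1.45 and 11.6% of control members' windows, against 1.33 and 7.22% at 1-strand promoters. With 200 bp the ETS intervals did not overlap in the control list (8.66 to 15.4% and 6.11 to 8.51%). They did not in the DHX9 list either (9.69 to 15.2% and 7.59 to 9.55%), nor did those of YY1 there (12.5 to 18.5% and 9.91 to 12.1%). NFY was in 5.52 and 31.7% of control members' windows, against 3.44 and 32.2%, so with 200 bp the shares were about equal. In the U2AF1 list it was in 1.75 and 26.9% against 2.81 and 30.1%, so the direction there turned with the window. In the DHX9 list the members' share was the higher in each window, with 6.17 and 33.2% against 4.01 and 29.1%. All these NFY intervals overlap. TATA was in 0 and 5.52% of control members' windows, against 0.444 and 6.33%, and YY1 in 5.23 and 12.8%, against 4.5 and 10.7%. SP boxes were in 60.2, 59.6 and 61.7% of members' windows, against 61.2, 63.7 and 65.9%.

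Members' windows were somewhat less G+C-rich than those of 1-strand promoters, with medians of 69.7, 72.1 and 70.6% against 72.6, 74.1 and 73.1%. The CpG ratio, observed CpG over the number that the C and G content gives, was 0.894, 0.94 and 0.918 against 0.94, 0.937 and 0.932. No member's window was of low complexity: the lowest entropy of triplets was 4.44, 4.31 and 4.28 bits, and 0 windows lay under 4 bits.

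Annotated pairs with and without a peak were compared in windows of 201 bp at the middle between canonical divergent starts, which do not use the summit. The 524 pairs without a peak had a median G+C of 62.2% and a CpG ratio of 0.859. The 388 pairs with a peak in any list had 66.7% and 0.923, and the 59 with a peak in all 3 lists 70.6% and 0.972. E-boxes were in 11.3% (8.56 to 14.9%) of windows with a peak and 6.49% (4.68 to 8.93%) of windows without, and YY1 in 6.44% (4.4 to 9.34%) and 3.24% (2.04 to 5.13%). Both pairs of intervals overlap. ETS was in 13.9 and 10.7%, NRF1 in 6.44 and 4.77%, SP in 62.1 and 57.1%, NFY in 35.3 and 36.1% and TATA in 3.09 and 2.86%. The NFY share was thus about the same with and without a peak. G+C content moved with the presence of a peak, and its part in the motif shares was not tested.

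G over C skew, (G - C)/(G + C) on the coding strand, is a sequence feature of stretches that form R-loops, and was taken over the 500 bp after each start. At divergent members both starts had a positive skew at 136 of 293 control peaks (46.4%, 40.8 to 52.1%), 53 of 136 U2AF1 peaks (39%, 31.2 to 47.4%) and 239 of 467 DHX9 peaks (51.2%, 46.7 to 55.7%). Over single starts the positive share was 67.9, 63.2 and 70.6%, against 71.2, 70.1 and 70.4% at 1-strand promoters with a peak. Among divergent DHX9 members, both starts were positive at 55.5% (49.3 to 61.4%) of the 256 that no control peak overlapped and at 46% (39.4 to 52.7%) of the 211 that one did. These intervals overlap.

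The rule's limit of 1000 bp left few peaks near it. In the control list 2 members had their farther start 901 to 1000 bp away and 6 peaks just outside 1001 to 1100 bp away, in the U2AF1 list 3 and 2, and in the DHX9 list 4 and 10. The members nearest to the limit had folds of 3.41, 7.1 and 5.4, and the first peaks beyond it 5.4, 9.55 and 6.77.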

How the data were processed

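POLR2A ChIP-seq of HEK293T cells was deposited as 1 peak list per condition. Per the submitters' processing notes, Bowtie2 2.4.5, deepTools 3.5.1, MACS2 2.2.7.1 and the build hg38 were used. Their settings and the use of the inputs are not given in the sources used here. The deposited files give each peak's fold enrichment (a ratio), −log10 of its p-value and q-value, a score and a summit, all from the authors. All sequence names of the lists are in hg38, and 0 peaks end beyond their sequence. Coordinates count from 1.

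Summits were placed against GENCODE 44 coding starts with Python 3.11.15, pandas 2.3.3, numpy 2.4.6, scipy 1.17.1 and pysam 0.24.0. Peaks on other sequences (89, 107 and 132 in the control, U2AF1 and DHX9 lists) were left out. Shares carry 95% Wilson intervals, and 900 simulated peaks were placed correctly in a check of the code. Members, gene lists, motifs and pairs were chosen with earlier results of these data known. Named pairs are the 5 highest per list, the 5 highest missing from each other list compared, textbook pairs, up to 4 per gene group and up to 3 with peaks at both starts, and some of these pairs are not reported here. The promoter counts over canonical starts, the windows between starts and the shares with a reach of 300 bp were added after seeing the data. Alternatives were windows of 500 and 2000 bp, canonical starts, −log10 q of at least 5, lists of equal length, other overlap rules and other summit windows.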

Additional observations from a re-analysis of the deposited data

How the results depend on the processing

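No paired analysis was possible because the deposit holds 1 peak list a condition, and for the same reason no replicate could be left out. Of the shares and medians recomputed under the alternatives, apart from motif shares, 97 stayed within the interval of the reported value and 26 did not. Of the member counts, 8 stayed within 1.5 times the reported count and 7 did not. With canonical starts alone the lists (control, U2AF1, DHX9) held 220, 107 and 367 members, or 8.25, 6.59 and 8.51% of their peaks, against 12.9, 10.5 and 12.8% with all starts; the control and DHX9 lists changed order, within overlapping intervals. The share of annotated promoters with a peak was then 19.9, 9.58 and 32.6%, and that of summits between divergent starts 12.1, 10.3 and 14.8%. Peaks with −log10 q of 5 or more left 230, 95 and 352 members. Peaks then stood at 11.3, 4.73 and 17.4% of promoters, and 27 and 64.3% of control members were in the U2AF1 and DHX9 lists. With lists of equal length the control and DHX9 lists held 198 and 208 members, at 9.72 and 10.3% of promoters. Overlap was then 39.9% and 50% for control members in the U2AF1 and DHX9 lists, and 48.5% and 52.6% for U2AF1 members in the control and DHX9 lists. It was 41.8% for DHX9 members in the U2AF1 list. With a 500 bp window 11.6% of control and 11.2% of DHX9 peaks were members, and with 2000 bp 14% of the latter. With summits within 250 bp as the rule, 64% of control members were in the DHX9 list and 39.7% the other way. Canonical starts, the higher q, equal length and the 500 bp window let fewer starts, peaks or summits enter by construction. The 2000 bp window lets more summits enter. The cause of the other moves was not tested. Of the motif shares, recomputed likewise, 43 moved by more than their interval and 38 did not. Depth is unknown, so a promoter without a peak is one where none was detectable.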
